A study of Mus musculus with 45 samples.

Results

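The 44 genes described here are cell cycle and mitosis genes of the mouse, chosen by symbol, and each stood in 1 row among the 49922 gene symbols that have a single row in the deposited tables. By role they were 8 G1 cyclins and kinases, 13 genes of replication licensing and DNA synthesis, 20 genes of G2 and mitosis, and 3 CDK inhibitors. RNA was sequenced from neural stem cells (NSCs) and intermediate progenitor cells (IPCs) sorted from the adult mouse dentate gyrus (DG), and from whole DG. The untreated groups were NSCs and IPCs from mice 1 to 3, with 3 technical replicates of each, and whole DG from mice 4 to 6. In the second experiment, mice were killed 4 h after lateral fluid percussion injury (LFPI), a fluid pulse onto the dura that models closed brain trauma, or after sham surgery without the pulse. It held NSCs from 3 LFPI and 2 sham mice, IPCs from 3 LFPI and 3 sham mice, and whole DG from 3 LFPI and 3 sham mice. All mice were labelled NestinGFP on a C57Bl6J background and were 6 to 9 weeks old. A figure legend of the authors instead describes the untreated whole DG as coming from wild-type mice, and the labels were followed here. In NestinGFP mice regulatory elements of the Nestin gene drive GFP. Live cells negative for CD31, CD45, O1 and O4 and positive for Nestin-GFP were taken, as NSCs where GLAST was present and as IPCs where it was not, in lots of 300 cells. Sorted cells went through a full-length cDNA kit without RNA isolation and whole DG RNA through a directional kit. Population, input and kit therefore cannot be told apart between sorted cells and whole DG. If the legend holds, genotype cannot be told apart from them in the untreated mice either.

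Cells enter the cycle when D-type cyclins activate Cdk4 and Cdk6, which relieve repression of E2F target genes such as the cyclins E, the MCM helicase subunits and the enzymes of nucleotide supply. Genes of G2 and mitosis are switched on later, many through the CHR and CCAAT elements bound by the DREAM, MYBL2 and NF-Y complexes, and inhibitors of the Cip/Kip family hold the kinases in check. In the adult DG most NSCs are quiescent and IPCs are known as the amplifying, more often dividing progenitors.

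Promoter stretches are shown for 6 members because the elements named above can be read in them. RefSeq promoters (GRCm38.p6, 250 bases before to 50 after the start) were found for 35 of the 44 members, as 38 windows of 32851 in all. Each window was searched on both strands for TTTGAA (CHR), CCAAT, and TTTCGCGC or TTTGGCGC (E2F), which share no bases in the matches shown except that 1 E2F pair of Mcm6 overlaps on opposite strands. The stretches are on the minus strand of chr11:99024190-99024309 for Top2a, chr10:69352939-69353052 for Cdk1, chr4:118437353-118437423 for Cdc20, chr7:135716380-135716499 for Mki67, chr6:125191702-125191766 for Ncapd2 and chr1:128359706-128359825 for Mcm6. They run 5′ to 3′ towards the start, and capitals mark the matches in either orientation.
Top2a: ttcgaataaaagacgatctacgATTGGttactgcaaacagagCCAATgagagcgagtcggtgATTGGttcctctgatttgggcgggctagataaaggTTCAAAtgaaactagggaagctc
Cdk1: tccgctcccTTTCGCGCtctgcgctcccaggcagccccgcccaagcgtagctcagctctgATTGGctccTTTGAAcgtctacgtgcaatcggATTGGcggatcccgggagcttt
Cdc20: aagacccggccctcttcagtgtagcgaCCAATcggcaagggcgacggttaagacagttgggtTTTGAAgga
Mki67: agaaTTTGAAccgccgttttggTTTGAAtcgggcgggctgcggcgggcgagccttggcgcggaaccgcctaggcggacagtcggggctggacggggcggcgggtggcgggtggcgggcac
Ncapd2: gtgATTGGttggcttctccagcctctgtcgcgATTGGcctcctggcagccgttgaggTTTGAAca
Mcm6: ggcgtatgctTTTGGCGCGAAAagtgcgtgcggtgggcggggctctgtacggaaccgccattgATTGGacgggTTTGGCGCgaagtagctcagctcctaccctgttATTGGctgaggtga

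The CHR letters stood in 12 of 17 windows of G2 and mitosis genes (70.6%), in 1 of 12 windows of replication genes and in 0 of 6 windows of G1 genes, against 17.9% of all windows. CCAAT stood in 15 of 17 G2 and mitosis windows (88.2%) and in 9 of 12 replication windows (75%), against 37.4% of all windows. The E2F letters stood in 5 of 12 replication windows (41.7%) and in 2 of 17 G2 and mitosis windows (11.8%), against 0.813% of all windows. A match is a description of the letters in the window and no test was made of binding.

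Depth ran from 9933254 to 18369483 reads in genes in the 21 untreated libraries and from 9292264 to 21598519 in the 17 libraries of the LFPI experiment. In whole DG every member was above 0 in every library. In untreated NSCs 34 of 44 members were above 0 in all 9 libraries, and 22 of 44 were in untreated IPCs, where 8 members were under 10 normalized counts in most libraries. Of 8 progenitor and neuroblast markers 5 rose in untreated NSCs and 7 in IPCs relative to whole DG, which does not tell the sorted labels apart. Between NSCs and IPCs 2 of the 8, Calb2 and Tubb3, were lower in NSCs. Endothelial markers rose over whole DG as well, 8 of 8 in NSCs and 7 of 8 in IPCs. Their median log2 fold changes were 4.63 and 2.82, against 1.99 and 2.68 for the progenitor list. The summed level of 8 endothelial markers was 46566 to 68844 normalized counts in untreated NSC libraries, 11792 to 71219 in IPC libraries and 1281 to 1932 in whole DG, so it moved with both comparisons of these populations, as did 7 microglia markers between NSCs (2367 to 10030.5) and IPCs (23.5 to 2524). Pericyte and smooth muscle markers moved with both comparisons too. Their sums were 36856 to 64770.1 in NSCs and 53258 to 106758 in IPCs, against 1299 to 1676 in whole DG, and 5 of 6 rose in each sorted population. Between NSCs and IPCs 1 of the 6, Acta2, was higher in NSCs and 2, Kcnj8 and Vtn, were lower, with a median log2 fold change of -1.12. The part of these cells in the members' values was not tested. Of 9 radial glia markers 4 rose and 1, Gfap, fell in NSCs relative to whole DG (median library 1062, against 12420.4 in whole DG), and 1, Vim, rose in NSCs over IPCs. Technical replicate 2 of IPC mouse 2 stood apart with the highest endothelial sum of the IPC libraries and with 3939 normalized counts of Cdkn1a, while its G2 and mitosis genes summed to 1050.5. It also had the fewest genes above 0, 12157, against 15363 to 16646 in the other IPC libraries. After CLEAR, the authors' coverage filter, 14 of the 44 members had a value in it, against 25 to 39 in the others. The part of this low detection in its values was not tested. In the LFPI experiment the sorted LFPI libraries were deeper (15367572 to 21598519 reads) than the sorted sham libraries (9604877 to 13081689) and ran on other lanes, so lane and depth cannot be told apart from treatment.

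**Figure D1:**
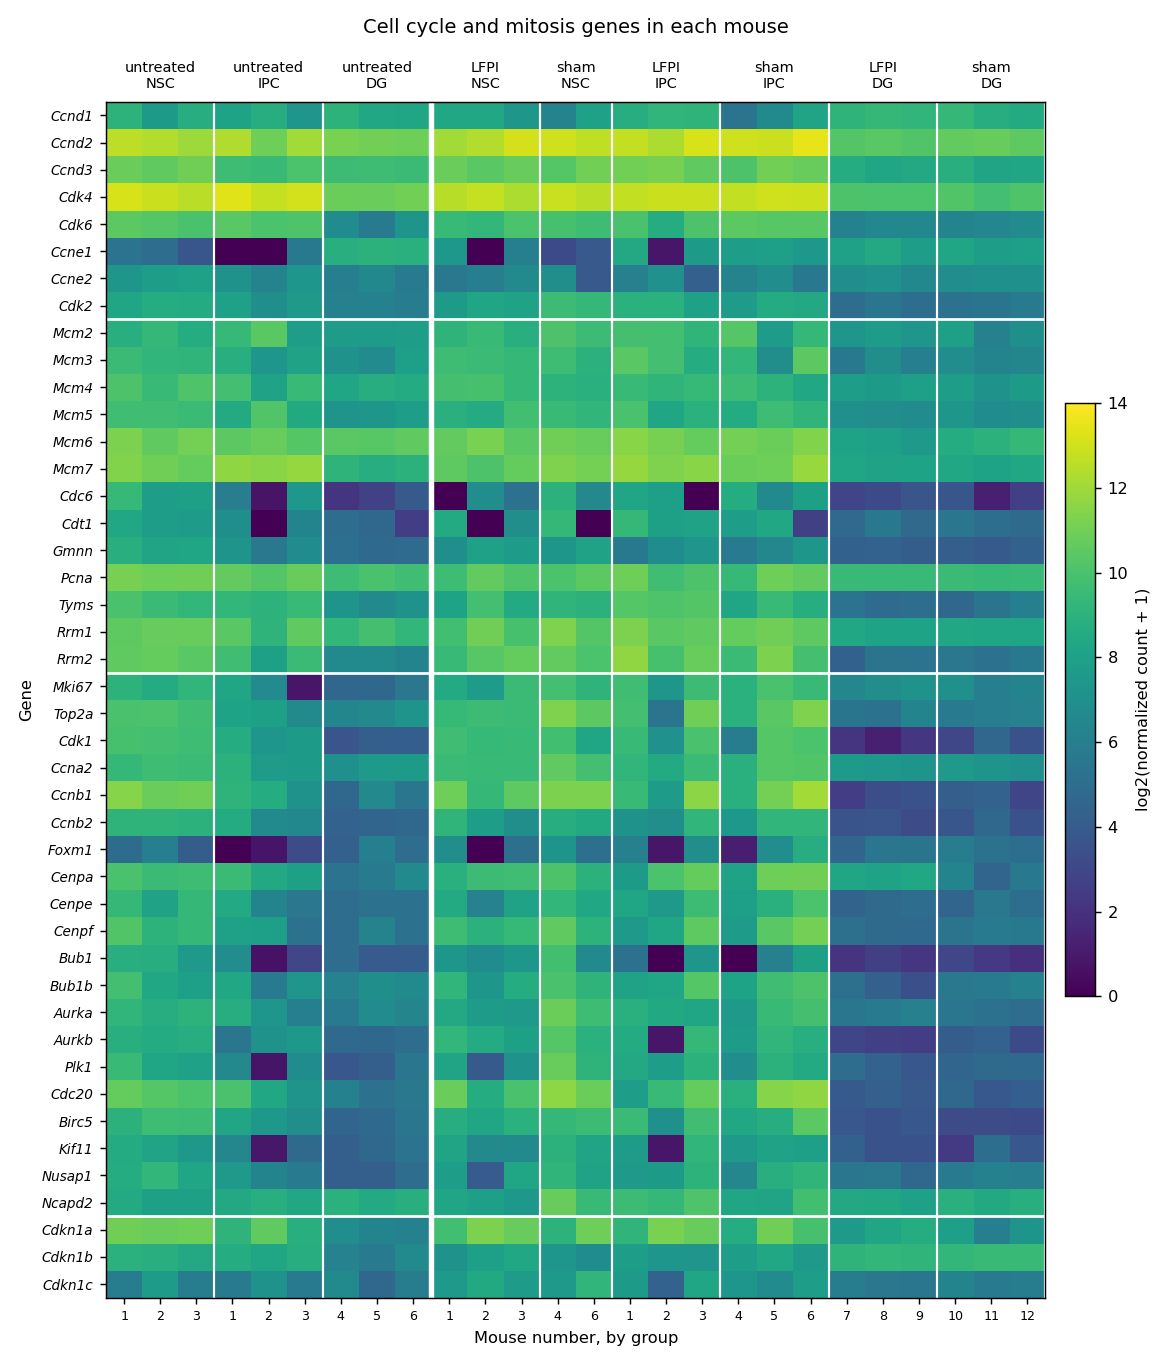
Heat map of the 44 members (rows, by role: G1 cyclins and kinases, replication, G2 and mitosis, CDK inhibitors, divided by white lines) in 26 mouse-by-population samples (columns, by group), coloured by log2(normalized count + 1). Most G2 and mitosis genes are brighter in NSC and IPC columns than in DG columns, with Ncapd2 an exception in untreated mice, Ccne1 is dark in untreated IPC mice 1 and 2 at 0 normalized counts, and the thick line separates tables that were normalized separately.

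The first comparison asked how NSCs differ from IPCs of the same untreated mice. Of the 44 members 2 rose in NSCs, Top2a and Ccnd3, and 0 fell, by limma on log2(normalized count + 1) with an adjusted p under 0.05 over 17638 genes and an absolute log2 ratio of 1 or more. Over all genes tested 1.15% rose and 0.482% fell. The median log2 fold change of the members was 1.45, against 0.00 over all genes, and 40 of 44 members lay above 0. The mice did not overlap for 28 members, 27 higher in NSCs and 1, Mcm7, lower, and over all genes 9.52% were higher and 7.9% lower without overlap. In bulk samples such as these, fewer cells of a type and less RNA per cell cannot be told apart. With the mouse as a replicate block no member passed, nor did any other gene, and the adjusted p was 0.162 for Top2a and 0.187 for Ccnd3. That fit also left out whole DG, whose spread enters the main fit, so the block and the smaller fit cannot be told apart. The recovered reads gave 3 members with edgeR and 13 with DESeq2, all higher in NSCs, where edgeR called 0.935% and DESeq2 called 4.1% of all genes higher.

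Among the G2 and mitosis genes, 1 of 20 rose and 19 of 20 lay above 0, with a median log2 fold change of 2.07 and 17 without overlap of the mice. Top2a, the topoisomerase that untangles sister chromatids, had 1017, 1037 and 826 normalized counts in NSCs of mice 1, 2 and 3, against 280.5, 244 and 98.0 in IPCs. Every NSC mouse lay above every IPC mouse, and the log2 fold change was 2.33 ± 0.42 (SE, limma adjusted p = 0.0335). Ccnb1, the cyclin B of mitotic entry, had 2811, 1770 and 1994 in NSCs and 541, 410 and 146 in IPCs, and Cdk1, its kinase partner, had 958, 888 and 796 in NSCs and 404, 165 and 194 in IPCs. Neither pair of groups overlapped, and both genes missed the threshold with log2 fold changes of 2.75 ± 0.58 (limma adjusted p = 0.0553) for Ccnb1 and 1.90 ± 0.40 (limma adjusted p = 0.0566) for Cdk1. Mki67, the proliferation antigen Ki-67, had 524, 395 and 595 in NSCs and 297, 106 and 0.786 in IPCs, a spread among the IPC mice that left it at a log2 fold change of 3.70 ± 1.59 (limma adjusted p = 0.279). Ncapd2, a condensin subunit, was the member of this group below 0, with 378, 244 and 248 in NSCs and 355, 461 and 323 in IPCs, which overlapped.

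The spread of mitotic genes among libraries was wide in IPCs. Mki67 was between 99.1 and 725 normalized counts in the 9 NSC libraries, with a median of 486, and between 0 and 557 in the 9 IPC libraries, with a median of 1.66. Of the 9 IPC libraries 5 had less than 2 Mki67 counts and 4 had 30.9 or more, so the IPC levels fell into very low and clearly detected libraries. Top2a was between 2.09 and 1802 in the NSC libraries, where the low value belonged to technical replicate 2 of mouse 2, and between 0 and 485 in the IPC libraries.

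**Figure D2:**
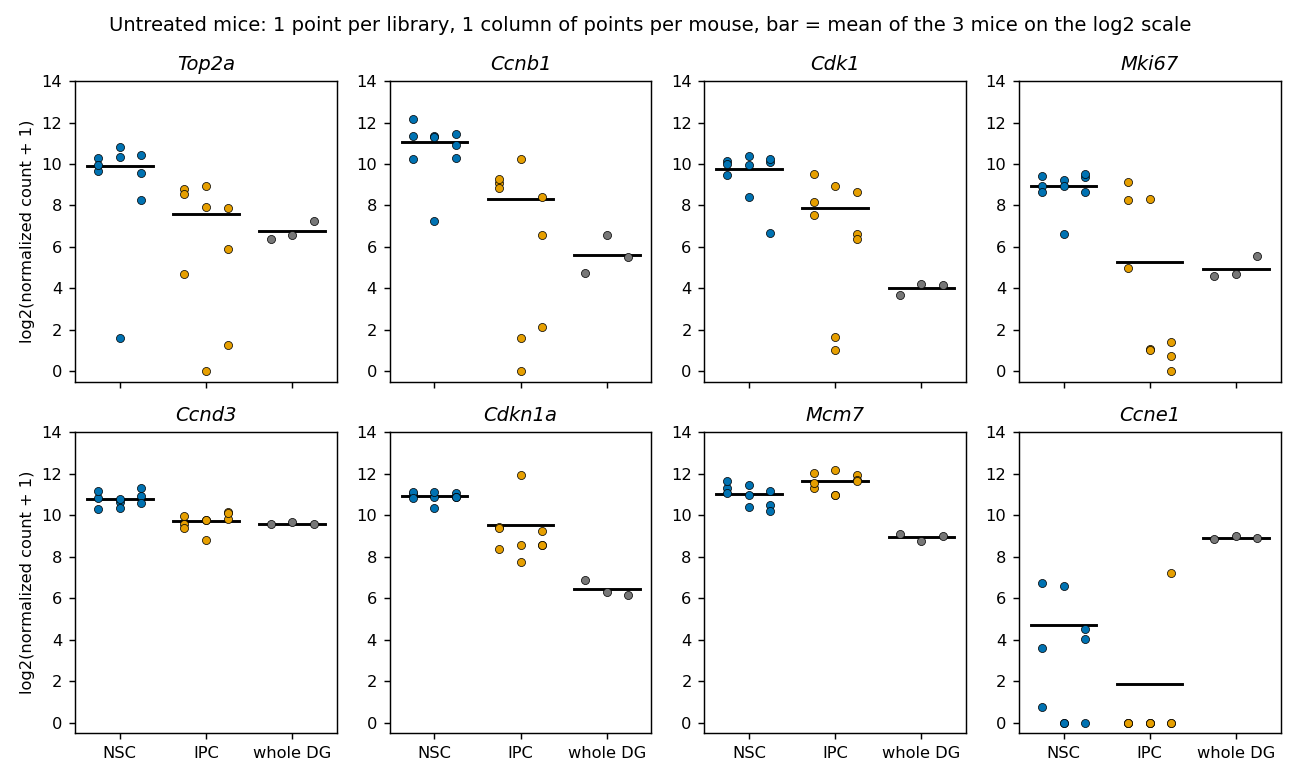
Level of 8 members in untreated NSCs, IPCs and whole DG, as log2(normalized count + 1), with 1 point per library, the technical replicates of a mouse in 1 column and a bar at the mean of the mice on that scale. Top2a, Ccnb1, Cdk1 and Mki67 are higher in most NSC libraries than in IPC libraries, Mcm7 is the exception, and Ccne1 is at 0 in 8 of 9 IPC libraries and near 9 in whole DG.

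Among the G1 genes 1 of 8 rose, with a median log2 fold change of 0.67. Ccnd3, a D-type cyclin, had 1789, 1537 and 1995 normalized counts in NSCs, against 809, 726 and 1049 in IPCs, with no overlap and a log2 fold change of 1.05 ± 0.17 (SE, limma adjusted p = 0.023). It lay near the fold threshold, and it fell short of it, at 0.94, without IPC mouse 2. The other D-type cyclins overlapped between the populations. Ccnd2 had 6177, 5263 and 3933 in NSCs and 5223, 1955 and 4270.4 in IPCs (log2 fold change 0.52 ± 0.33, limma adjusted p = 0.478), and Ccnd1 had 519, 197 and 419 in NSCs and 279, 422 and 156 in IPCs (0.41 ± 0.47, limma adjusted p = 0.719). Cdk4 and Cdk6, the kinases that D-type cyclins activate, lay at log2 fold changes of -0.17 and 0.03.

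No replication gene passed in either direction, with 13 genes tested, a median log2 fold change of 0.65 and 6 at an unadjusted limma p under 0.05. Of all 17638 genes tested 3067 had an unadjusted limma p under 0.05. In this group edgeR called 0 and DESeq2 called 2, Gmnn and Rrm2. The MCM2 to MCM7 proteins form 1 helicase, and the values of their transcripts lay on both sides of 0. Mcm7 had 2622, 2029 and 1627 normalized counts in NSCs, against 3242, 2882 and 3486 in IPCs, so that every NSC mouse lay below every IPC mouse, at a log2 fold change of -0.64 ± 0.19 (SE, limma adjusted p = 0.145). Mcm3 lay in the other direction, with 734, 590.2 and 579 in NSCs and 437, 162 and 268 in IPCs (1.24 ± 0.42, limma adjusted p = 0.183). Mcm6 had 2385, 1506 and 2120.3 in NSCs and 1441, 1690.2 and 1275 in IPCs, which overlapped (0.43 ± 0.19, limma adjusted p = 0.288). The gaps for Mcm4 (0.77 ± 0.42) and Mcm5 (0.55 ± 0.43) had limma adjusted p values of 0.405 and 0.563. Mcm2 had 441, 651 and 410.4 in NSCs and 675, 1364 and 223 in IPCs, and its log2 fold change of -0.27 ± 0.56 (limma adjusted p = 0.87) turned to 0.58 without the library of IPC mouse 2 that stood apart. Pcna, the sliding clamp of DNA polymerase, had 2205, 1912 and 1989.9 in NSCs and 1592, 1231 and 1694 in IPCs, without overlap (0.45 ± 0.16, limma adjusted p = 0.209).

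Of the 3 CDK inhibitors 0 passed with limma or edgeR, and 1, Cdkn1a, passed with DESeq2, which is also the number at an unadjusted limma p under 0.05. Cdkn1a, which encodes p21, had 2030.1, 1801 and 1954 normalized counts in NSCs and 560.3, 1510 and 453 in IPCs, so the groups did not overlap and IPC mouse 2 lay nearest to the NSCs. Its log2 fold change was 1.41 ± 0.42 (SE, limma adjusted p = 0.145). Without technical replicate 2 of IPC mouse 2, a setting chosen after its values were seen, it was 2.19 with a limma adjusted p of 0.00615, and 5 members passed, Ccnd3, Top2a, Cdk1, Mcm5 and Cdkn1a. That replicate held 3939 normalized counts of Cdkn1a, against 210 to 684 in the other 8 IPC libraries. It was the highest IPC library for Mcm5 too, so the calls of Cdkn1a and Mcm5 without it are not independent of that choice. The share of all genes called in that setting is not given here. Cdkn1b, encoding p27, had 486, 449 and 344 in NSCs and 405, 297 and 414 in IPCs (0.20 ± 0.33, limma adjusted p = 0.823). Cdkn1c, encoding p57, had 57.7, 216 and 58.4 in NSCs and 51.5, 143 and 52.9 in IPCs (0.30 ± 0.75, limma adjusted p = 0.898). Mouse 2 was the high one in both populations through its technical replicate 2 alone. That replicate had 581 in NSCs, with 45.1 and 20.4 in the others, and 408 in IPCs, with 0 and 19.6 in the others.

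The second set of mice gave another look at NSCs against IPCs, over 5 NSC and 6 IPC samples of the LFPI experiment. No gene of the marker lists passed between these populations. The median log2 fold changes were 0.24 for endothelial and -0.18 for microglia markers, against 1.53 and 3.53 in untreated mice. Oligodendrocyte precursor markers lay further from 0 here, at 1.23 against 0.59. The part of these cells in the members' values was not tested. Of the 44 members 0 passed with limma, edgeR or DESeq2, and 0% of 17230 genes passed with limma. The median log2 fold change of the members was -0.08, against 0.09 over all genes, 21 members lay above 0 and no member had populations without overlap. For the G2 and mitosis genes the median was 0.20, with 13 of 20 above 0. Top2a had 654, 782 and 735 normalized counts in LFPI NSCs and 910.3, 41.1 and 1979 in LFPI IPCs, and 2462 and 1417 in sham NSCs and 499, 1389 and 2498 in sham IPCs. The NSC values lay inside the range of the IPC values. The smallest p belonged to Mcm7, with 1483, 1069.9 and 1629 in LFPI NSCs and 3559.6, 2492 and 2954 in LFPI IPCs, and 2548 and 2137 in sham NSCs and 1844, 1950.4 and 3734 in sham IPCs. Its log2 fold change of -0.57 ± 0.22 (SE) had an unadjusted p of 0.027 and a limma adjusted p of 0.861, and it was the 1 member at an unadjusted p under 0.05. Of all 17230 genes 973 had an unadjusted limma p under 0.05. The difference between the untreated mice and the LFPI experiment was not tested, since their tables were normalized separately.

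**Figure D3:**
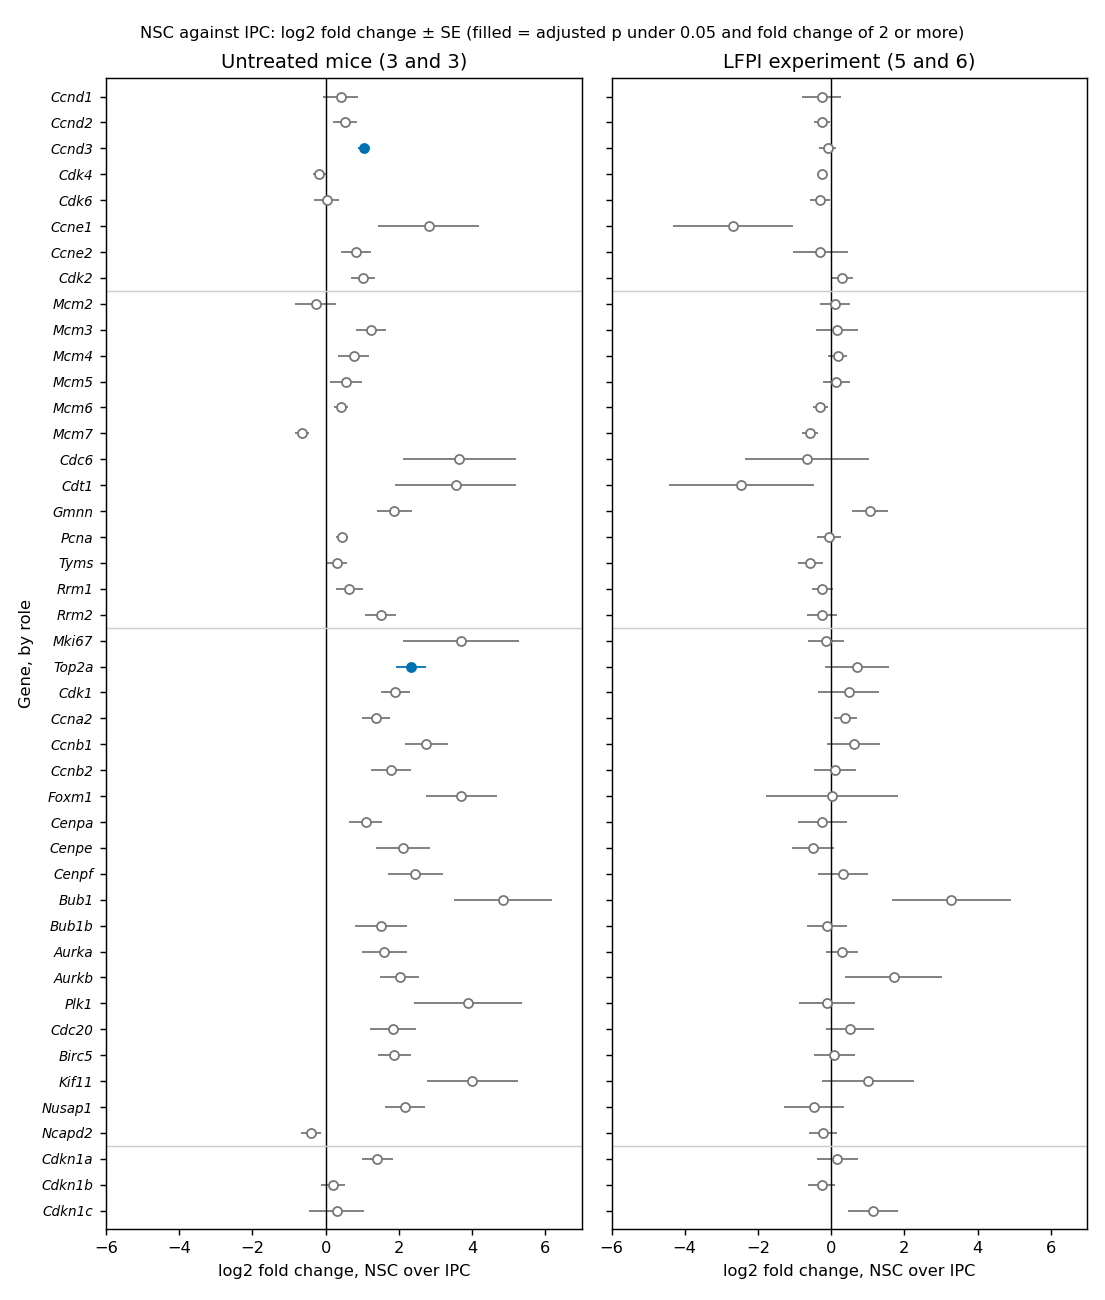
Log2 fold change of NSCs over IPCs (horizontal axis) with its SE for the 44 members by role, in untreated mice on the left and in the LFPI experiment on the right, where filled points passed the limma threshold. In untreated mice most G2 and mitosis genes lie to the right of 0, with Top2a and Ccnd3 filled, and in the LFPI experiment the members scatter about 0 with a median of -0.08.

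The next comparison set the sorted cells against whole DG of untreated mice. Of the 44 members 34 rose and 1 fell in NSCs, and 18 rose and 2 fell in IPCs, by limma. Over all genes, 12.4% rose and 30.7% fell in NSCs, and 11.4% rose and 31.1% fell in IPCs. On the log2 scale the members had medians of 2.63 in NSCs and 1.26 in IPCs, against -0.64 and -0.68 over all genes. With every library rescaled to 1 total, which brought the all-gene medians to 0.04 and 0.00, 38 members rose and 0 fell in NSCs (23.5% and 21.3% of all genes), and 30 rose and 2 fell in IPCs (22.9% and 21% of all genes).

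Of the G2 and mitosis genes 16 of 20 rose in NSCs and 8 of 20 in IPCs. Cdk1 had 958, 888 and 796 normalized counts in NSCs and 404, 165 and 194 in IPCs, against 11.8, 17.6 and 17.0 in whole DG of mice 4, 5 and 6. All sorted samples lay above all whole DG samples, with log2 fold changes of 5.76 ± 0.40 in NSCs (limma adjusted p = 1.03e-05) and 3.86 ± 0.40 in IPCs (limma adjusted p = 9.44e-05). Top2a had 83.6, 94.9 and 152 in whole DG, and rose by a log2 fold change of 3.15 ± 0.42 in NSCs (limma adjusted p = 0.000369), while its IPC difference of 0.82 ± 0.42 did not pass (limma adjusted p = 0.141) but passed with the libraries rescaled (1.55, adjusted p = 0.0143), with edgeR (1.41, adjusted p = 0.0283) and with DESeq2 (1.28, adjusted p = 0.0129). Mki67 had 23.6, 24.6 and 46.2 in whole DG, and passed neither in NSCs (4.01 ± 1.59, limma adjusted p = 0.0644) nor in IPCs (0.31 ± 1.59, limma adjusted p = 0.885), although no NSC mouse overlapped with whole DG. Its IPC value was 2.7 with edgeR (adjusted p = 0.136) and 2.56 with DESeq2 (adjusted p = 0.0543). Without IPC mouse 3 it was 2.53 and passed (limma adjusted p = 0.00776), and without mouse 1 or mouse 2 it was -1.17 or -0.42. Birc5, the survivin gene of the chromosomal passenger complex, rose in both populations, with 518, 809 and 781 in NSCs and 306, 176 and 122 in IPCs, against 22.4, 26.9 and 44.9 in whole DG. Its log2 fold changes were 4.47 ± 0.44 in NSCs (limma adjusted p = 6.08e-05) and 2.60 ± 0.44 in IPCs (limma adjusted p = 0.00148). Foxm1, a transcription factor of mitotic genes, had 29.5, 64.8 and 16.5 in NSCs and 0, 0.727 and 8.12 in IPCs, against 18.8, 65.6 and 31.6 in whole DG. It fell in IPCs by 3.81 on the log2 scale (limma adjusted p = 0.0108), and neither edgeR (adjusted p = 0.147) nor DESeq2 (adjusted p = 0.06) called it.

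Of the G1 genes 6 of 8 rose in NSCs and 3 of 8 in IPCs. Cdk4 had 8933, 7581 and 6040.0 normalized counts in NSCs and 10071, 6941 and 8317 in IPCs, against 1823, 1805 and 2077 in whole DG, with log2 fold changes of 1.97 ± 0.17 (limma adjusted p = 3.38e-05) and 2.14 ± 0.17 (limma adjusted p = 2.66e-05). Its exons share 19.7% of their bases with Tspan31 on the other strand, and the counting took no account of strand. The other members sharing over 10% of exonic bases with other genes were Cdkn1c (30.7%), Ccnd1 (23.4%), Ccne2 (17.4%), Mcm7 (12.6%) and Ccna2 (12.5%). Cdk6 had 1394, 1248 and 1017 in NSCs and 1382, 1059 and 1138 in IPCs, against 113, 56.2 and 151 in whole DG, with log2 fold changes of 3.60 ± 0.34 (limma adjusted p = 4.86e-05) and 3.57 ± 0.34 (limma adjusted p = 6.07e-05). For both kinases the NSC and IPC ranges overlapped and lay far above whole DG. Ccnd2 had 2305, 2102 and 1948 in whole DG and rose in NSCs (1.25 ± 0.33, limma adjusted p = 0.0134), and its IPC difference did not pass (0.74 ± 0.33, limma adjusted p = 0.0989). Ccnd1 had 526, 335 and 305 in whole DG, and its log2 fold changes of -0.11 ± 0.47 in NSCs and -0.52 ± 0.47 in IPCs (limma adjusted p = 0.866 and 0.39) turned to 0.59 and 0.21 with the libraries rescaled.

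Ccne1, a cyclin E partner of Cdk2, was the 1 member that fell in both populations. It had 39.4, 31.2 and 12.3 normalized counts in NSCs and 0, 0 and 48.8 in IPCs, against 455, 501 and 480 in whole DG. All 3 whole DG mice lay above every sorted mouse, and 8 of 9 IPC libraries were at 0, so the fitted log2 fold changes of -4.21 in NSCs (limma adjusted p = 0.0331) and -7.03 in IPCs (limma adjusted p = 0.00333) depend on the pseudocount. On the recovered reads edgeR gave adjusted p values of 0.156 and 0.0939, and in NSCs limma gave 0.0682 with the libraries rescaled. Ccne2, the other cyclin E, lay higher in NSCs, with 171, 224 and 258 in NSCs and 144, 74.8 and 163 in IPCs, against 65.9, 91.4 and 52.2 in whole DG. It rose in NSCs (1.64 ± 0.42, limma adjusted p = 0.0114), and the IPC mice overlapped with whole DG.

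Of the replication genes 10 of 13 rose in NSCs and 5 of 13 in IPCs. Mcm7 had 544, 424 and 514 normalized counts in whole DG and rose by 2.06 ± 0.19 in NSCs and 2.70 ± 0.19 in IPCs on the log2 scale (limma adjusted p = 4.41e-05 and 1.32e-05). Tyms, the thymidylate synthase, had 1009, 739 and 606 in NSCs and 625, 533 and 722 in IPCs, against 151, 99.6 and 139.7 in whole DG. It rose in both, by log2 fold changes of 2.57 ± 0.27 (limma adjusted p = 8.39e-05) and 2.27 ± 0.27 (limma adjusted p = 0.000197). Mcm6 was the helicase subunit closest to whole DG, where it had 1380.2, 1329.6 and 1525 normalized counts, with log2 fold changes of 0.48 ± 0.19 in NSCs and 0.05 ± 0.19 in IPCs (limma adjusted p = 0.0633 and 0.844). Mcm3, Mcm4 and Mcm5 rose in NSCs by log2 fold changes between 1.32 and 2.13, and of these Mcm5 rose in IPCs too (1.58 ± 0.43, limma adjusted p = 0.0158). Mcm2 did not pass in NSCs (1.18 ± 0.56, limma adjusted p = 0.112) or in IPCs (1.45 ± 0.56, limma adjusted p = 0.0604). Pcna had 801, 995 and 844 in whole DG and rose in NSCs (1.21 ± 0.16, limma adjusted p = 0.000327), and its IPC log2 fold change of 0.77 ± 0.16 stayed under the fold threshold with a limma adjusted p of 0.00429.

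Of the 3 CDK inhibitors 2, Cdkn1a and Cdkn1b, rose in each sorted population. Cdkn1a had 117, 78.5 and 70.4 normalized counts in whole DG, and its log2 fold changes were 4.46 ± 0.42 in NSCs (limma adjusted p = 4.81e-05) and 3.06 ± 0.42 in IPCs (limma adjusted p = 0.00048). Cdkn1b had 74.2, 51.5 and 104 in whole DG and rose by 2.50 ± 0.33 in NSCs and 2.30 ± 0.33 in IPCs (limma adjusted p = 0.000324 and 0.000575). Cdkn1c had 98.9, 25.8 and 57.1 in whole DG, overlapping with both sorted populations (0.76 ± 0.75 in NSCs and 0.46 ± 0.75 in IPCs, limma adjusted p = 0.424 and 0.633).

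Sham mice repeated the comparison with whole DG. Of the 44 members 35 rose and 2 fell in sham NSCs, and 34 rose and 1 fell in sham IPCs, with medians of 2.99 and 2.77, against -0.35 and -0.50 over all genes. Over all genes 15.6% rose and 24.3% fell in sham NSCs (18.9% and 21.4% with the libraries rescaled), and 16.5% rose and 27.9% fell in sham IPCs (20.9% and 24.1% rescaled). Both populations share the sham DG mice. Endothelial markers rose here too, 7 of 8 in sham NSCs and 5 of 8 in sham IPCs. Pericyte and smooth muscle markers rose in 5 of 6 and 6 of 6, and progenitor and neuroblast markers in 6 of 8 and 7 of 8. The part of these cells in the members' values was not tested. Of the G2 and mitosis genes 17 of 20 rose in each. Mki67 had 908 and 559 normalized counts in sham NSCs and 487, 1023 and 685 in sham IPCs, against 129, 61.5 and 78.9 in sham DG, without overlap. It rose by log2 fold changes of 3.04 ± 0.46 in sham NSCs (limma adjusted p = 0.00192) and 3.02 ± 0.41 in sham IPCs (limma adjusted p = 0.000982). Ccne1 split the sorted populations here, with 7.70 and 14.03 in sham NSCs and 230.2, 238 and 175 in sham IPCs, against 311, 226 and 234 in sham DG. It fell by 4.48 on the log2 scale in sham NSCs (limma adjusted p = 0.000421) and lay at -0.26 ± 0.42 in sham IPCs (limma adjusted p = 0.642).

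Cdkn1b ran in opposite directions in the experiments. It had 163 and 110.4 normalized counts in sham NSCs and 227, 334 and 179.8 in sham IPCs, against 620.3, 682 and 712 in sham DG, and fell by 2.31 on the log2 scale in sham NSCs and by 1.48 in sham IPCs (limma adjusted p = 0.00195 and 0.00691). In untreated mice the whole DG values were the low ones and the gene rose in the sorted cells. The tables were normalized separately and the difference between the experiments was not tested. Cdkn1a kept its direction, with 530.0 and 1941 in sham NSCs and 401, 1981 and 989.6 in sham IPCs, against 241, 64.1 and 151 in sham DG, and rose by 2.92 ± 0.87 and 2.79 ± 0.78 (limma adjusted p = 0.0308 and 0.0213).

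**Figure D4:**
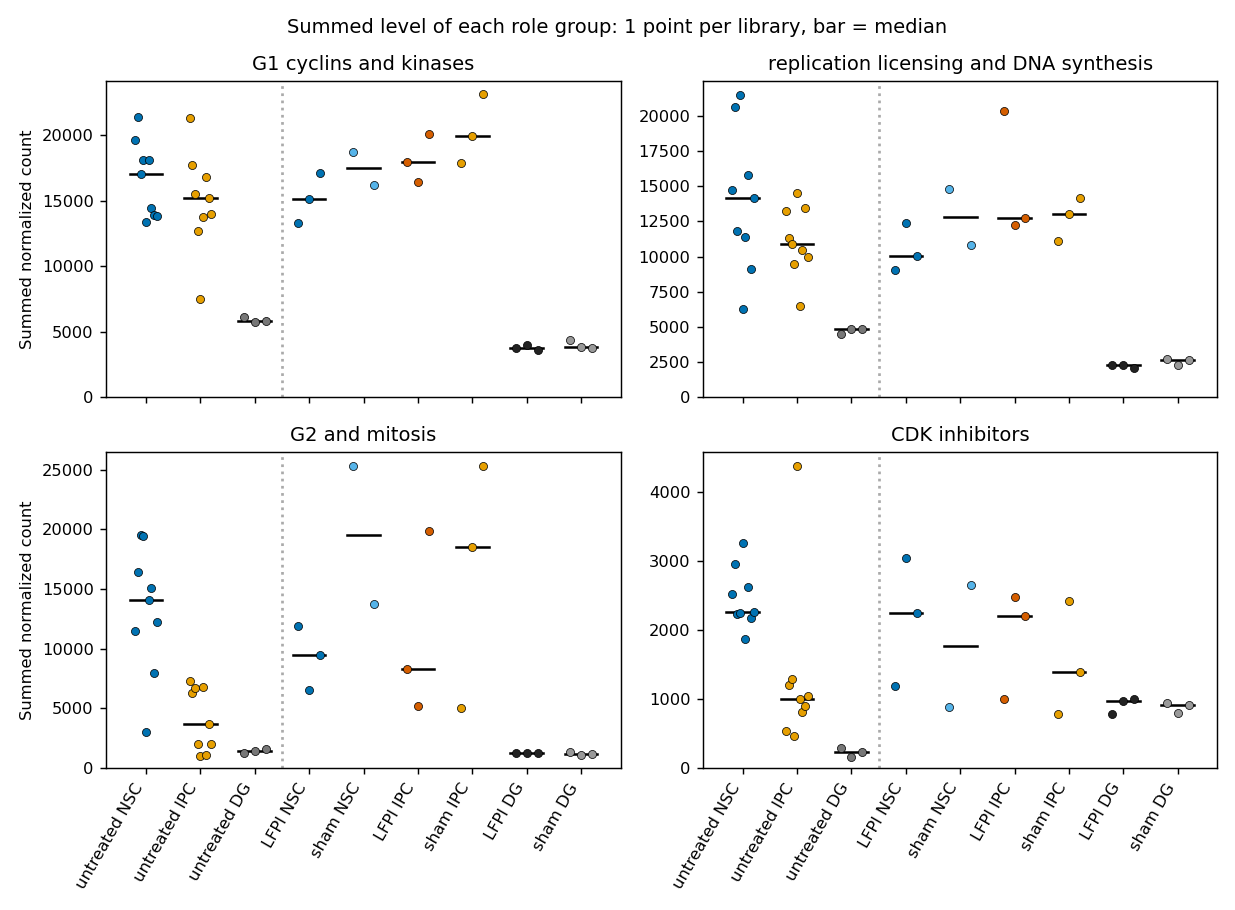
Summed normalized counts of the members of each role (vertical axes, linear from 0) in every library of the 9 groups, with a bar at the median, and a dotted line between the untreated mice and the LFPI experiment, whose tables were normalized separately. The G2 and mitosis sums have a median of 14046 in untreated NSC libraries and 3690.3 in untreated IPC libraries, the LFPI NSC libraries (6540 to 11913) lie below the sham NSC libraries (13706 and 25289.5), and the LFPI and sham IPC libraries overlap.

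The LFPI experiment asked what changed in each population 4 h after injury. In NSCs 0 of 44 members passed with limma or edgeR, as did 0% of 17274 genes, and 6 members and 743 genes in all stood at an unadjusted limma p under 0.05. DESeq2 called 3 members lower, Aurka, Ncapd2 and Top2a, and 0.232% of all genes lower. The median log2 fold change of the members was -0.53, against -0.02 over all genes, and 19 of the 20 G2 and mitosis genes lay below 0, with a median of -1.08. Mice did not overlap for 12 members lower after LFPI and 1 higher, Mcm4, and over all genes 8.87% were higher and 10.2% lower without overlap. Sham NSCs came from 2 mice, and sham mouse 4 held the higher value for most mitotic genes. Radial glia markers summed higher in LFPI NSCs (225937 to 260934, against 155786 and 200336 in sham NSCs) and mature neuron markers lower (2872 to 3359, against 3521 and 4287), both without overlap. The oligodendrocyte precursor and microglia lists had median log2 fold changes of 1.29 and -1.80 with overlapping sums, no marker gene passed, and their part in the members' values was not tested.

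Aurka, the mitotic kinase of spindle poles, had 346, 204 and 184 normalized counts in LFPI NSCs, against 1829 and 791 in sham NSCs, with a log2 fold change of -2.35 ± 0.51 (SE, limma adjusted p = 0.944). Ncapd2 had 302, 240.0 and 172 in LFPI NSCs and 1746 and 702 in sham NSCs (-2.25 ± 0.52, limma adjusted p = 0.944). Top2a had 654, 782 and 735 in LFPI NSCs and 2462 and 1417 in sham NSCs (-1.37 ± 0.33, limma adjusted p = 0.944). For these 3 genes both sham mice lay above all LFPI mice, with DESeq2 adjusted p values of 0.00215, 0.00352 and 0.0115. Plk1, another mitotic kinase, had 293, 14.5 and 142 in LFPI NSCs and 1704 and 542 in sham NSCs (-3.47 ± 1.26), and Cdk2, the partner of cyclins E and A, had 201, 303 and 264 in LFPI NSCs and 785 and 650.1 in sham NSCs (-1.50 ± 0.40). Mcm7 lay at -0.77 ± 0.28, with the limma adjusted p of these 3 also at 0.944. Mki67 overlapped between the groups, with 383, 204 and 752 in LFPI NSCs and 908 and 559 in sham NSCs, as did Cdkn1a, with 856, 2444 and 1709 in LFPI NSCs and 530.0 and 1941 in sham NSCs.

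In IPCs 0 of 44 members passed with limma, edgeR or DESeq2, with 2 at an unadjusted limma p under 0.05, and 0% of 16970 genes passed with limma, with 752 at an unadjusted p under 0.05. The members' median was -0.40, against -0.04 over all genes. Tyms had 1283, 1141 and 1212 normalized counts in LFPI IPCs, against 298, 712 and 429 in sham IPCs, without overlap, at a log2 fold change of 1.43 ± 0.37 (SE, limma adjusted p = 0.915). Ccnd1 had 422, 584 and 552 in LFPI IPCs and 40.2, 100.1 and 292 in sham IPCs, again without overlap (2.27 ± 0.73, limma adjusted p = 0.915). These 2 members were the ones higher without overlap and Cdk6 the 1 lower, where all genes gave 4.68% higher and 5.13% lower. Mitotic genes spread widely among IPC mice, and Top2a had 910.3, 41.1 and 1979 in LFPI IPCs and 499, 1389 and 2498 in sham IPCs.

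The response of NSCs was set against that of IPCs as an interaction. Of the 44 members 0 passed with limma or edgeR, DESeq2 called 1 lower, Ncapd2 (adjusted p = 0.0179), as it did 0.18% of all genes, and 0% of 17230 genes passed with limma. At an unadjusted limma p under 0.05 stood 6 members, Ncapd2, Cdk2, Tyms, Plk1, Mcm7 and Aurka, and 565 of the 17230 genes in all. Ncapd2 had the smallest p, with 302, 240.0 and 172 normalized counts in LFPI NSCs and 1746 and 702 in sham NSCs, and with 769, 649 and 1136 in LFPI IPCs and 300, 293 and 873 in sham IPCs. The NSC response minus the IPC response was -3.21 ± 0.77 on the log2 scale, with an unadjusted limma p of 0.00169.

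In whole DG 41 of the 44 members were tested after LFPI, since Cdc6, Cdk1 and Bub1 had a mean under 10 normalized counts. None of the 41 passed with limma or edgeR, 9 stood at an unadjusted limma p under 0.05, and 0% of 17434 genes passed with limma, with 3468 at an unadjusted p under 0.05. DESeq2 called 3 members, Cenpa higher and Mcm6 and Bub1b lower, with 0.642% of all genes higher and 0.539% lower. The median log2 fold change was -0.18, against -0.04 over all genes. Of the 41 members 3 were higher without overlap, Cenpa, Aurka and Birc5, and 8 were lower, where 9.03% and 13.9% of all genes tested were.

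Cenpa, the histone H3 variant that marks centromeres, had 298, 271 and 318 normalized counts in LFPI DG of mice 7, 8 and 9, against 78.4, 22.7 and 49.99 in sham DG of mice 10, 11 and 12. The lowest LFPI mouse lay far above the highest sham mouse, and the log2 fold change was 2.69 ± 0.37 (SE, limma adjusted p = 0.128). DESeq2 gave an adjusted p of 1.54e-12, limma gave 0.0364 with no filter on low values and 0.252 without the trend, and with 6 groups sharing 1 spread limma called no gene in whole DG. In the sorted cells Cenpa overlapped between treatments, with 472, 767 and 830.3 in LFPI NSCs and 1092 and 516 in sham NSCs, and 199, 1032 and 1682 in LFPI IPCs and 269, 1904 and 1971 in sham IPCs. The exons of Cenpa (chr5:30666777-30674830, plus strand, GRCm38) overlap no other gene of GENCODE M21. Cenpf, a kinetochore protein, had 34.4, 27.8 and 26.2 in LFPI DG and 40.6, 50.8 and 49.99 in sham DG (-0.66 ± 0.26, limma adjusted p = 0.21), and Cenpe, a kinetochore motor, lay at -0.30 ± 0.34 (limma adjusted p = 0.654).

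Mcm6 had 277, 237 and 179.7 normalized counts in LFPI DG, against 413, 511 and 631 in sham DG, without overlap, at a log2 fold change of -1.16 ± 0.20 (SE, limma adjusted p = 0.128, DESeq2 adjusted p = 0.000187). The other MCM subunits lay between -0.34 and 0.40, and each overlapped. They were Mcm2 (0.40 ± 0.37, limma adjusted p = 0.572), Mcm3 (-0.34 ± 0.32, 0.572), Mcm4 (0.24 ± 0.19, 0.505), Mcm5 (-0.18 ± 0.20, 0.633) and Mcm7 (-0.14 ± 0.14, 0.582). Bub1b, the spindle checkpoint kinase BubR1, had 34.4, 18.5 and 9.52 in LFPI DG and 47.6, 56.1 and 69.7 in sham DG, without overlap (-1.59 ± 0.43, limma adjusted p = 0.14, DESeq2 adjusted p = 0.0389). Ncapd2 had 346, 323 and 257 in LFPI DG and 476, 359 and 447 in sham DG (-0.47 ± 0.16, limma adjusted p = 0.182). Ccnd2 had 1241, 1386 and 1177 in LFPI DG and 1564, 1725 and 1466 in sham DG (-0.32 ± 0.11, limma adjusted p = 0.184), and again no LFPI mouse reached the sham mice.

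Cdkn1a had 189, 311 and 399.8 normalized counts in LFPI DG, against 241, 64.1 and 151 in sham DG, which overlapped through sham mouse 10 (1.1 ± 0.44 on the log2 scale, SE, limma adjusted p = 0.218). Without sham mouse 10, 3 members passed, Cenpa, Cdkn1a and Mcm6, with limma adjusted p values of 0.00086, 0.0421 and 0.00634, and 366 genes of the whole table rose and 167 fell. The general proliferation markers overlapped, with 88.5, 120.4 and 146 for Mki67 in LFPI DG and 129, 61.5 and 78.9 in sham DG (0.43 ± 0.30, limma adjusted p = 0.439). Top2a (-0.35 ± 0.31, limma adjusted p = 0.556), Ccnd1 (0.33 ± 0.19, limma adjusted p = 0.36) and Pcna (0.00 ± 0.11, limma adjusted p = 0.997) did not pass. Cdkn1b (-0.22 ± 0.12, limma adjusted p = 0.316) was lower in LFPI DG without overlap, with 543, 616 and 564 in LFPI DG and 620.3, 682 and 712 in sham DG, and Cdkn1c lay at -0.35 ± 0.25 (limma adjusted p = 0.456). Of the 8 marker lists 4 summed lower in LFPI DG without overlap: myelin (14122 to 18241, against 24708 to 27128 in sham DG), microglia (3415 to 3552, against 3878 to 4650.4), mature neuron (102631 to 112751, against 113516 to 132339) and oligodendrocyte precursor (3242 to 3657, against 3837 to 3952). No marker gene passed, and the part of these cells in the members' values was not tested.

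**Figure D5:**
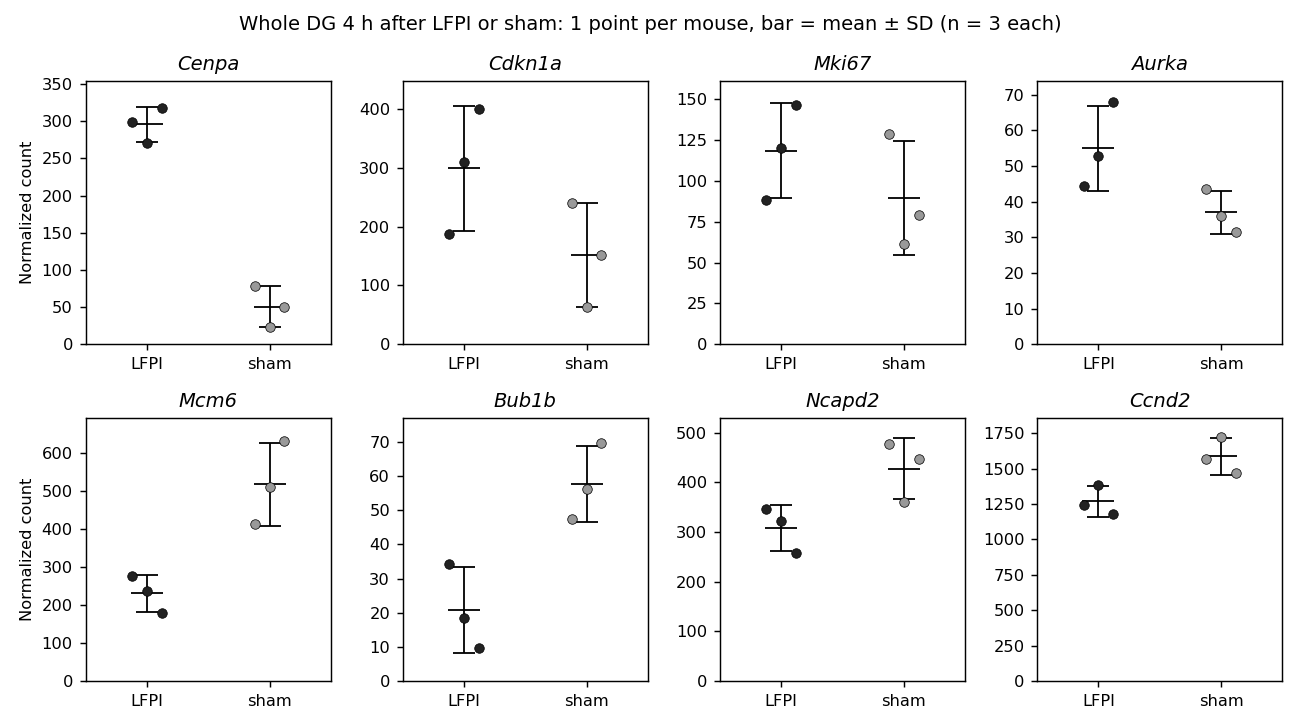
Normalized counts (vertical axes, linear from 0) of 8 members in whole DG 4 h after LFPI (left) and sham surgery (right), with 1 point per mouse and the mean ± SD of 3 mice each. The LFPI mice lie above the sham mice for Cenpa (271 to 318 against 22.7 to 78.4) and Aurka, below them for Mcm6, Bub1b, Ncapd2 and Ccnd2, and overlap with them for Cdkn1a and Mki67.

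Other genes of the same pathway, 97 in 4 lists of E2F and DREAM components, replication, G2 and mitosis, and INK4 inhibitors and p53 targets, gave a wider view. Between untreated NSCs and IPCs 2 of 96 tested rose and 0 fell, both of them mitotic: Spc25, a kinetochore subunit, at 804 ± 238 normalized counts in NSCs and 232 ± 39.5 in IPCs (SD, n = 3 each, log2 fold change 1.76 ± 0.33, limma adjusted p = 0.0365), and Smc2, a condensin core subunit, at 1411 ± 287 in NSCs and 682 ± 75.9 in IPCs (1.03 ± 0.21, limma adjusted p = 0.0457). Over all genes 1.15% rose and 0.482% fell. In the list of 39 other G2 and mitosis genes 37 lay above 0, with a median log2 fold change of 1.33. Against whole DG 38 of 96 rose and 6 fell in untreated NSCs and 28 rose and 10 fell in IPCs. Over all genes 12.4% rose and 30.7% fell in NSCs, and 11.4% rose and 31.1% fell in IPCs. Rfc3, a clamp loader subunit, was among the risers in NSCs and IPCs at 633 ± 8.49 and 711 ± 22.8 normalized counts, against 119 ± 2.90 in whole DG (SD, n = 3 each), and Rbl2, the pocket protein p130 of DREAM, was among those that fell, at 299 ± 71.2 and 286 ± 12.5, against 1237 ± 118. In sham mice 44 rose and 3 fell in NSCs and 41 rose and 4 fell in IPCs. Over all genes 15.6% rose and 24.3% fell in sham NSCs, and 16.5% rose and 27.9% fell in sham IPCs. Cdkn2c, an INK4 inhibitor, was among the risers, at 811 ± 126 in sham NSCs (n = 2) and 813 ± 94.1 in sham IPCs, against 57.4 ± 15.3 in sham DG (n = 3 each). After LFPI 0 of 95 passed in NSCs, 0 of 94 in IPCs and 0 of 85 in whole DG with limma, with 14, 3 and 18 at an unadjusted p under 0.05, edgeR called 0 in each, and DESeq2 called 0, 0 and 3. Over all genes, 743 of 17274 in NSCs, 752 of 16970 in IPCs and 3468 of 17434 in whole DG had an unadjusted limma p under 0.05. In whole DG DESeq2 called 0.642% of all genes higher and 0.539% lower. In NSCs 38 of the 39 other G2 and mitosis genes lay below 0 after LFPI, with a median log2 fold change of -1.09, and none passed.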

How the data were processed

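The deposited values are a signal unit: gene counts that the authors made with CASAVA 1.8.2, HISAT2 2.0.6 and featureCounts of Subread on GENCODE M14 gene models without regard to strand, and divided by DESeq2 size factors, separately for the untreated and the LFPI libraries. The submitters' processing notes name GRCh38, a human build, for these mouse data. The authors also deposited tables after CLEAR, their filter on evenly covered transcripts, which served only as an alternative filter. Values were whole reads times 1 factor per library for 100% of values (tolerance 0.05 reads), and depth was 9292264 to 21598519 reads. Of 50600 rows, 678 with 310 repeated symbols were left out, and 1 column without a labelled sample was not used.

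Technical replicates were averaged per mouse. Genes averaging 10 or more normalized counts were tested with limma 3.58.1 (trend, two-sided, R 4.3.3) on log2(normalized count + 1). The added 1 pulls the change of low genes towards 0. A mouse near 0 can also move the mean of the logs far in either direction, so large fold changes of low genes are not conservative. A gene rose or fell at a Benjamini-Hochberg adjusted p under 0.05 over all genes tested and an absolute log2 fold change of at least 1. The 3 untreated groups shared 1 fit, as did the 3 sham groups and the 4 sorted groups of the LFPI experiment, and LFPI against sham was fitted within each population. The p-values measure the spread between mice, which includes that between libraries. In whole DG and in the LFPI experiment each mouse gave a single library per population, so the spread of mice and of libraries cannot be told apart. Alternatives were a pseudocount of 0.5 or 10, no filter, CLEAR in every library, no trend, libraries rescaled to 1 total, edgeR 4.0.16 and DESeq2 1.42.0 on recovered reads, adjusted p alone, each mouse left out, averages on the log2 scale, the mouse as a block (sorted cells alone) and, for LFPI against sham, 1 spread shared by 6 groups. Fits were tested on simulated data. Python 3.11.15, numpy 2.4.6, pandas 2.3.3, scipy 1.17.1 and matplotlib 3.10.9 made tables and plots.

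NSCs and IPCs with 1 mouse number came from the same animal by their labels. The correlations of their deviations from the group means were 0.0566, 0.0229 and 0.0405 in untreated mice, 0.0854, 0.0526 and 0.0724 in LFPI mice and 0.102 in both sham mice. The members and lists were chosen with earlier results of these data known. Named genes were the members that passed, with those of smallest adjusted p, a fixed set of 15 (Mki67, Top2a, Cdk1, Ccnd1, Ccnd2, Pcna, Mcm2 to Mcm7, Cdkn1a, Cdkn1b and Cdkn1c), and, added after the data were seen, members at an unadjusted p under 0.05 where none passed.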

Additional observations from a re-analysis of the deposited data

Results flagged for a closer look

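Of 38 sets of 9 untreated libraries checked, 7 had 1 library far from the others. The limit used flags about 1 in 20 sets of independent, normally distributed values. These sets are counts of technical replicates and the sums contain single genes, so that rate is no measure of chance here. Technical replicate 2 of IPC mouse 2 held 5 of them, each as the highest library: the summed CDK inhibitors (4380 normalized counts, with 1296 in the next library), Cdkn1a (3939, next 684), Mcm2 (3629, next 833), Mcm5 (2765, next 622) and Cdkn1c (408, next 129). The same library had the highest endothelial marker sum of the IPC libraries, 71219, and 0 counts of Top2a. It had 12157 genes above 0, against 15363 to 16646 in the other IPC libraries. The part of any of these in its levels was not tested. In NSCs, Cdkn1c was highest in technical replicate 2 of mouse 2 (581, next 113), and Cdkn1a was lowest in technical replicate 3 of mouse 2 (1297, next 1827).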

How the results depend on the processing

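Of 2153 values of named members under the alternatives, 1980 kept direction and side of the threshold, 82 lost the call, 63 gained it and 28 turned. Between untreated NSCs and IPCs the members called numbered 4 with a pseudocount of 10, 1 with no filter, 0 with no trend, 13 with DESeq2, 4 with log2 averages, 5 without technical replicate 2 of IPC mouse 2 (chosen after seeing the data), 0 with the mouse as a replicate block (a fit that also left out whole DG), and 0 to 8 with each mouse left out (0 without NSC mouse 3, 8 without IPC mouse 1). The block gave 0 in the LFPI experiment for NSC against IPC and for the LFPI response. Against whole DG, the CLEAR filter left 11 members to test, of which 10 in NSCs and 5 in IPCs were called. In IPCs 32 were called after rescaling, 11 with log2 averages and 17 to 28 with a mouse left out. The other ranges without 1 mouse were 28 to 30 (NSCs), 30 to 34 (sham NSCs) and 29 to 35 (sham IPCs). Where no share of all genes is printed for a setting, its count of members has no background beside it. After LFPI, DESeq2 called 3 members in NSCs, 3 in whole DG and 1 in the interaction, no filter gave 1 in whole DG (the CLEAR table leaves out no gene there and is the same fit), 6 groups sharing 1 spread gave 0 in each population, and leaving out a mouse gave 0 to 3 there and 0 in NSCs and IPCs. Turned log2 fold changes between NSCs and IPCs were those of Mcm2 (0.15 with log2 averages, 0.58 without the replicate, -0.97 to 0.34 with a mouse left out) and Cdkn1c (-0.33 to 0.78 with a mouse left out). In NSCs against whole DG, Ccnd1 turned to 0.59 rescaled, 0.44 with edgeR, 0.31 with DESeq2 and -0.39 to 0.30 with a mouse left out. In IPCs against whole DG, Ccnd1 turned to 0.21 rescaled and 0.13 with edgeR, and was called lower, at -2.24, with log2 averages (limma adjusted p = 0.00675). With log2 averages Mki67 turned to -1.07, Top2a to -0.76, Mcm4 to -0.28, Mcm6 to -0.05 and Cdkn1c to -1.25. With a mouse left out Mki67 lay at -1.17 to 2.53, Mcm6 at -0.06 to 0.15 and Cdkn1c at -0.04 to 0.91, and Cdkn1c lay at -0.78 without the replicate. In whole DG after LFPI, Pcna turned to 0.02 with edgeR, 0.03 with DESeq2 and -0.03 to 0.05 with a mouse left out, and Mcm2 lay at -0.02 to 0.86. Apart from the CLEAR filter in untreated cells, which left fewer genes to test, the cause was not tested. Sham NSCs came from 2 mice, and 8 of 44 members were under 10 normalized counts in most untreated IPC libraries, against 0 in NSC libraries of similar depth.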
